A study of Mus musculus with 12 samples.

Results

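Neat1, Malat1, Meg3, Rian, Mirg, Miat and Snhg11 are 7 genes whose long transcripts are abundant in brain and are not known to act mainly through a protein. They were chosen by symbol from the 19268 genes of the expression table, and all 7 were found. Neat1 had been singled out in these data because it was higher at P60 than at P25, and the other 6 were chosen beside it with those results known, so the age differences of all 7 are given below as descriptions, and nothing is read from how many of them pass a threshold. The samples were forebrains without the olfactory bulb from male C57BL/6J mice. Mice homozygous for a Shank3 deletion that removes internal exons (KO) and wild-type mice (WT) were taken as juveniles at P25 and as adults at P60, with 3 libraries from 3 mice for every combination of age and genotype. The 4 groups are called P25-WT, P25-KO, P60-WT and P60-KO. Shank3 is an excitatory postsynaptic scaffold protein, and the deletion is a germline one, present in all cells of the KO mice.

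Long noncoding RNAs of this kind work in the nucleus or as carriers of smaller RNAs. Neat1 is the architectural RNA of paraspeckles, nuclear bodies built around its long isoform together with RNA-binding proteins such as Nono and Sfpq. Malat1, its neighbour in the genome, gathers in nuclear speckles, where splicing factors are stored. Meg3, Rian and Mirg lie one after another in the imprinted Dlk1-Dio3 region, are transcribed from the maternal chromosome, and carry clusters of microRNAs and small nucleolar RNAs in and between their transcripts. Miat, also known as Gomafu, is a neuronal nuclear RNA with repeats that resemble the intron branch point sequence. Snhg11 hosts small nucleolar RNAs and is found mostly in neurons.

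The transcript ends are shown because the libraries were made with a kit that selects poly(A) RNA, so the 3′ end decides how a transcript is captured. Positions are in GRCm38 with GENCODE release M21, and all sequences run 5′ to 3′ along the transcript. The short Neat1 transcript (3004 bases) ends at chr19:5842307-5842366 on the minus strand, and the capitals mark the AATAAA polyadenylation signal.
Neat1, short: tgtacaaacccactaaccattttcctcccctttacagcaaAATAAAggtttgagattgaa
The long Neat1 transcript (20771 bases) ends at chr19:5824708-5824797 without that signal, and the capitals mark a U-rich and an A-rich stretch of the kind that folds into a protective triple helix.
Neat1, long: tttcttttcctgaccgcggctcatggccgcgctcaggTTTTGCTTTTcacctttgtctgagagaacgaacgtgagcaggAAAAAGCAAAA
Malat1 holds the same 11-letter A-rich stretch, with U-rich stretches on its 5′ side, at chr19:5795962-5796072 on the minus strand.
Malat1: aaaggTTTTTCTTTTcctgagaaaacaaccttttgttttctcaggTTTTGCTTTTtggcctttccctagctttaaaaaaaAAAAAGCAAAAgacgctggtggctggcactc
In Malat1 the A-rich stretch ends 292 bases before the annotated end, where an AATAAA also lies, so its capture by poly(A) selection cannot be read from the annotation alone. The letters AATAAA, searched on the transcript strand, were in the last 100 bases of 42.5% of the 58737 annotated transcripts of protein-coding genes, and of 1 of 4 Neat1, 3 of 4 Malat1, 8 of 12 Mirg and 0 of 6 Miat transcripts. The table gives 1 value per gene, so short and long Neat1 cannot be told apart in it.

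The chromosome 12 genes are shown by the microRNAs they carry. Meg3 (chr12:109541001-109571726), Rian (chr12:109603940-109661716) and Mirg (chr12:109729764-109749460) lie on the plus strand within 208460 bases that hold 54 microRNA hairpins in RefSeq, of which 1 lies inside Meg3, 3 inside Rian and 14 inside Mirg. One mature microRNA from each is given from RefSeq (GRCm38.p6), with its seed, bases 2 to 8, in capitals.
miR-770-5p in Meg3: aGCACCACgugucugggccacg
miR-370-3p in Rian: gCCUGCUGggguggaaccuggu
miR-134-5p in Mirg: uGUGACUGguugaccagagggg
The 3 seeds differ from each other, and microRNAs themselves were not measured here. Miat (chr5:112213228-112229395, minus strand) is shown by part of its repeat, at chr5:112216742-112216822, with TACTAAC in capitals.
Miat: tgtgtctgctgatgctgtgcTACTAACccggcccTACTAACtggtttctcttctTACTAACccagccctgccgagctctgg
The longest Miat transcript held 6 copies of TACTAAC, and it was the 1 gene with 6 or more among the 1067 long noncoding RNA genes of the table with a transcript of at least 2000 bases, a share of 0.0937%. Neat1 held 1 copy and the other 5 genes held none in their longest transcripts. Snhg11 (chr2:158375638-158386145, plus strand) overlaps 2 small nucleolar RNA genes, and GENCODE M21 classes it as protein-coding although it is commonly listed as noncoding. Neat1 (chr19:5824708-5845478) and Malat1 (chr19:5795690-5802672) are both on the minus strand with 22035 bases between them.

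The values are normalized counts whose read depth is unknown. Shank3 was 4535 to 5729 in the 6 KO libraries and 8936 to 11683 in the 6 WT libraries, lower in every KO library. A value per gene does not separate the deleted exons from the rest, so it gives the direction but does not show homozygosity. Shank3 was the 1 gene called in each of the genotype comparisons at P25, at P60 and over both ages, and at P25 its call was lost without P25-KO replicate 1 or 2. Forebrain markers were present in every library, with Tbr1 at 2465 to 3088. P25-WT replicate 2 stood apart from the other P25 libraries: of 17594 genes, 29.4% were lowest and 30.9% were highest there among the 6 P25 libraries. P60-WT replicate 2 and P60-KO replicate 1 held the highest summed levels of 5 cerebellar and hindbrain markers, 1318 and 437 normalized counts, against 105.5 to 182.5 in the other libraries, with the granule cell gene Cbln3 reaching 624 and the Purkinje cell gene Pcp2 reaching 244. Values without these libraries are given beside the main Neat1 results. For the other 6 genes, values without P25-WT replicate 2 or ranges with 1 library left out are given for some results.

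Levels can be compared between the genes only per kilobase of exon. Meg3 was the highest, with a mean over the 12 libraries of 8236 normalized counts per kilobase of merged exons, followed by Snhg11 at 6820, Malat1 at 3727, Miat at 1963, Rian at 1184, Neat1 at 123.9 and Mirg at 119.4. Each gene was above the next in 12 of 12 libraries, except that Neat1 was above Mirg in 0 of 6 P25 libraries and in 6 of 6 P60 libraries. The ranges over libraries overlapped between Meg3 and Snhg11, between Malat1 and Miat and between Neat1 and Mirg. The order depended on the length used. Per kilobase of the longest transcript, Meg3 stood at 10240 and Snhg11 at 9910, with Meg3 above in 6 of 12 libraries. Rian at 2670 passed Miat at 1991, and Mirg at 227.7 stood above Neat1 in 12 of 12 libraries. Both lengths count the full 20771 bases of long Neat1. Per kilobase of the shortest transcript (711 bases for Neat1, 360 for Mirg), Neat1 means were 1838 in P25-WT, 2026 in P25-KO, 5715 in P60-WT and 4894 in P60-KO. Those of Mirg were 2324 to 2554. Meg3 alone made up 0.342% to 0.561% of all normalized counts in a library.

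Neat1 was the member that moved most with age. It was 1318, 1032 and 1570 normalized counts in P25-WT replicates 1 to 3 and 1488, 1533 and 1301 in P25-KO. At P60 it was 4367, 3908 and 3916 in WT and 3552, 3345 and 3542 in KO. The lowest P60 library was thus above the highest P25 library in both genotypes. The P60 mean was 3.11 times the P25 mean in WT and 2.42 times in KO, and the log2 differences were 1.66 ± 0.14 in WT and 1.27 ± 0.07 in KO (estimate ± standard error, on the log2(normalized count + 1) scale used throughout). In WT, 44 of 17581 genes had a larger positive log2 difference, and in KO 102 of 17596. Without P25-WT replicate 2, the lowest of the P25 libraries for Neat1, the WT difference was 1.50 ± 0.09. Without P60-WT replicate 2 it was 1.68, and without P60-KO replicate 1 the KO difference was 1.26. In these bulk samples, more cells that express a gene and more RNA per cell cannot be told apart.

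**Figure D1:**
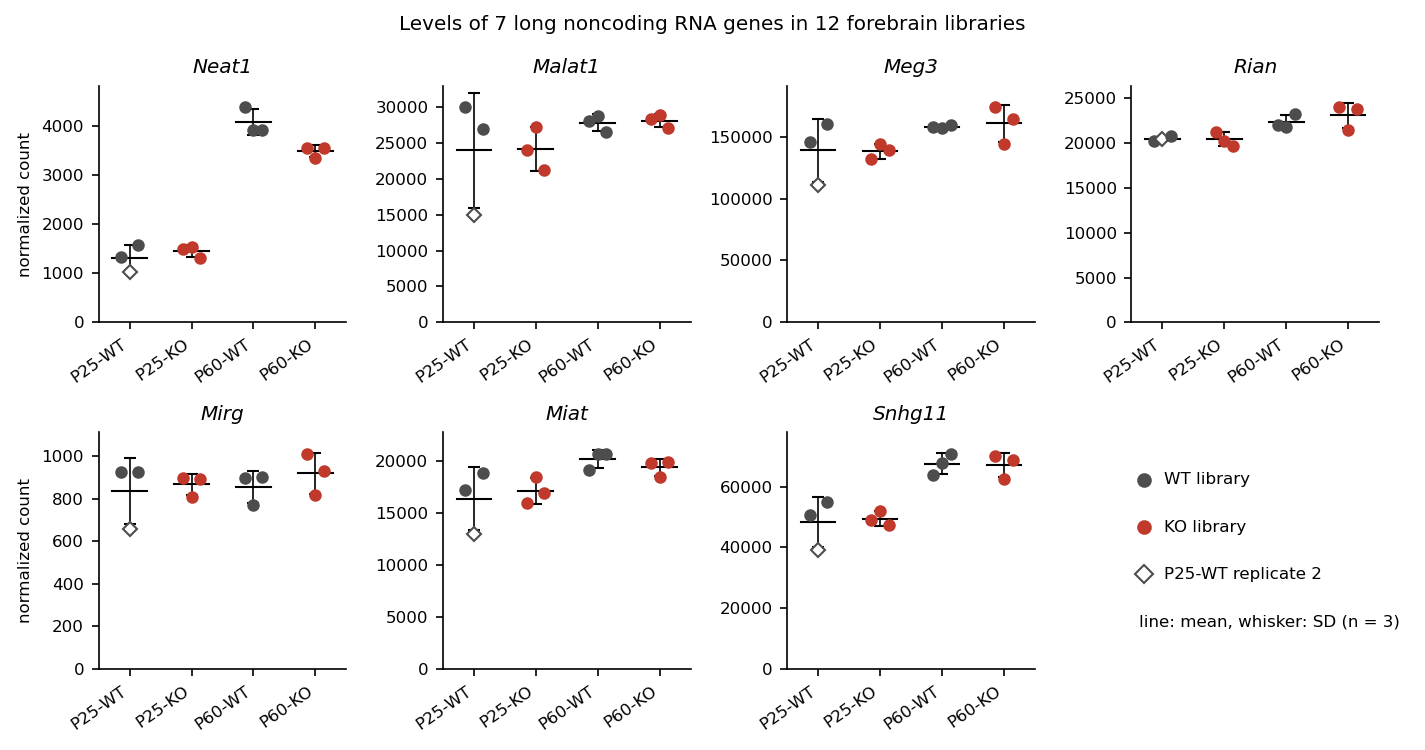
Normalized counts (linear axis from 0) of the 7 genes in each of the 12 libraries, by group, with the mean (line) and SD (whisker) of 3 libraries; the open diamond is P25-WT replicate 2. Neat1 separates the ages completely, from 1032 to 1570 at P25 and from 3345 to 4367 at P60, whereas Malat1 and Mirg overlap between ages in both genotypes.

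Malat1, transcribed on the same strand from the neighbouring locus, did not show the same separation. It was 29953, 14922 and 26995 in P25-WT, 24087, 27289 and 21182 in P25-KO, 28136, 28797 and 26538 in P60-WT and 28306, 28949 and 27144 in P60-KO. The ages overlapped in both genotypes, with log2 differences of 0.28 ± 0.22 in WT and 0.23 ± 0.08 in KO. Without P25-WT replicate 2, in which Malat1 was at its lowest, the WT difference was -0.03 ± 0.06.

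Taken within each library, Neat1 was higher against Malat1 at P60. Neat1 as a percent of Malat1 was 5.98 ± 0.31 (SD, n = 3) in P25-KO and 5.71 ± 1.26 in P25-WT, against 12.4 ± 0.76 in P60-KO and 14.6 ± 0.98 in P60-WT. The highest P25 library was P25-WT replicate 2 at 6.92 and the lowest P60 library was P60-KO replicate 2 at 11.6, so the ages did not overlap in this ratio. The genotypes did not overlap at P60, with 11.6 to 13.1 in KO and 13.6 to 15.5 in WT, where P60-WT replicate 2 was the lowest WT library. These percents are of counts per gene and are not corrected for length.

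Meg3, Rian and Mirg, the imprinted members on chromosome 12, had log2 age differences of at most 0.21, and of at most 0.32 with 1 library left out. Meg3 was 145722, 110625 and 160614 in P25-WT, 131611, 143867 and 139042 in P25-KO, 157561, 157072 and 159632 in P60-WT and 173593, 144063 and 164325 in P60-KO. Its ages overlapped in WT, with a log2 difference of 0.20 ± 0.12 that was 0.05 ± 0.05 without P25-WT replicate 2, and lay just apart in KO, with a difference of 0.21 ± 0.07.

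Rian, which carries small nucleolar RNAs, had the smallest spread of the 7 genes at P25. It was 20245, 20433 and 20759 in P25-WT, 21278, 20259 and 19731 in P25-KO, 22064, 21758 and 23246 in P60-WT and 23990, 21518 and 23842 in P60-KO. Every P60 library was above every P25 library of its genotype, with log2 differences of 0.13 ± 0.06 in WT and 0.18 ± 0.06 in KO, and both turned negative, to -0.20 and -0.06, when each library's dependence on GC content and transcript length was removed.

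Mirg, the host of 14 microRNA hairpins, was 926, 658 and 926 in P25-WT, 900, 810 and 895 in P25-KO, 898, 771 and 902 in P60-WT and 1011, 816 and 931 in P60-KO. Its ages overlapped in both genotypes, with log2 differences of 0.05 ± 0.14 in WT and 0.08 ± 0.09 in KO. The WT value was -0.12 without P25-WT replicate 2, and the KO value ran from 0.0075 to 0.16 with 1 library left out. Although Meg3, Rian and Mirg follow one another on one strand, their ratio was not fixed between libraries. Rian was 18.5% of Meg3 in P25-WT replicate 2 and 12.9% to 16.2% in the other 11 libraries, while Mirg was 0.491% to 0.684% of Meg3 in all 12.

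For Miat and Snhg11 every P60 library lay above every P25 library of its genotype. Miat was 17233, 12985 and 18857 in P25-WT, 15982, 18455 and 16885 in P25-KO, 19132, 20657 and 20639 in P60-WT and 19747, 18464 and 19865 in P60-KO. In KO the ages lay apart only by the margin between 18455 and 18464, and the log2 differences of Miat were 0.32 ± 0.12 in WT, or 0.16 ± 0.06 without P25-WT replicate 2, and 0.18 ± 0.06 in KO.

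Snhg11 was the member with the second largest age difference. It was 50800, 39054 and 54962 in P25-WT, 49171, 52048 and 47286 in P25-KO, 63905, 67929 and 70806 in P60-WT and 70003, 62616 and 68766 in P60-KO. The P60 mean was 1.40 times the P25 mean in WT and 1.36 times in KO, with log2 differences of 0.50 ± 0.12, or 0.35 ± 0.05 without P25-WT replicate 2, and 0.44 ± 0.06. Against Meg3 within the library, Snhg11 was 34.0% to 37.4% at P25 and 40.3% to 44.4% at P60, and Miat stayed between 11.4% and 13.2% at both ages.

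Across all 7 genes the age estimates were positive in both genotypes, with a median of 0.28 in WT and 0.21 in KO, against -0.001 in WT and 0.006 in KO over all genes. With limma and a Benjamini-Hochberg adjusted p under 0.05, 2 of the 7 were past the threshold in WT, where 8.65% of all 17581 genes were, and 3 of the 7 in KO, where 20.7% of 17596 genes were. The ages lay apart for 4 of the 7 in WT, as they did for 36.0% of all genes, and for 5 of the 7 in KO, as for 39.4%. Since this contrast chose the genes, these counts are no test of them. Over all genes 644 were called higher and 877 lower at P60 in WT, and 991 higher and 681 lower when each library was scaled to the same total. In KO 1649 were called higher and 1992 lower, and 2109 higher and 1621 lower with that scaling. Cell type markers moved with the same contrast: of 18 oligodendrocyte markers 15 were called lower at P60 in each genotype, with summed levels between 454400 and 584900 at P25 and between 227700 and 255900 at P60, and of 5 blood markers 5 were called lower in each, with summed levels between 20500 and 42980 at P25 and between 5894 and 7305 at P60. Choroid plexus markers moved the other way, as Neat1 did: of 9, 2 were called higher in WT and 5 in KO, with medians of 0.61 and 0.50 and summed levels between 10980 and 14760 at P25 and between 13330 and 19250 at P60. Of 13 microglial markers none was called in either genotype by limma, with 4 in WT and 5 in KO at an unadjusted p under 0.05, where 28.9% and 35.2% of all genes were. Astrocyte and glutamatergic neuron markers were lower in sum, at 136700 to 150400 against 158800 to 175300 and at 153900 to 160900 against 174500 to 184300, with 4 of 14 astrocyte markers called lower in each genotype and 3 of 14 glutamatergic markers in WT and 4 in KO, while 1 and 2 glutamatergic markers were called higher. Summed GABA interneuron markers overlapped between the ages, at 37300 to 38710 and 36310 to 39170. The part of these markers in the age differences of the 7 genes was not tested.

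**Figure D2:**
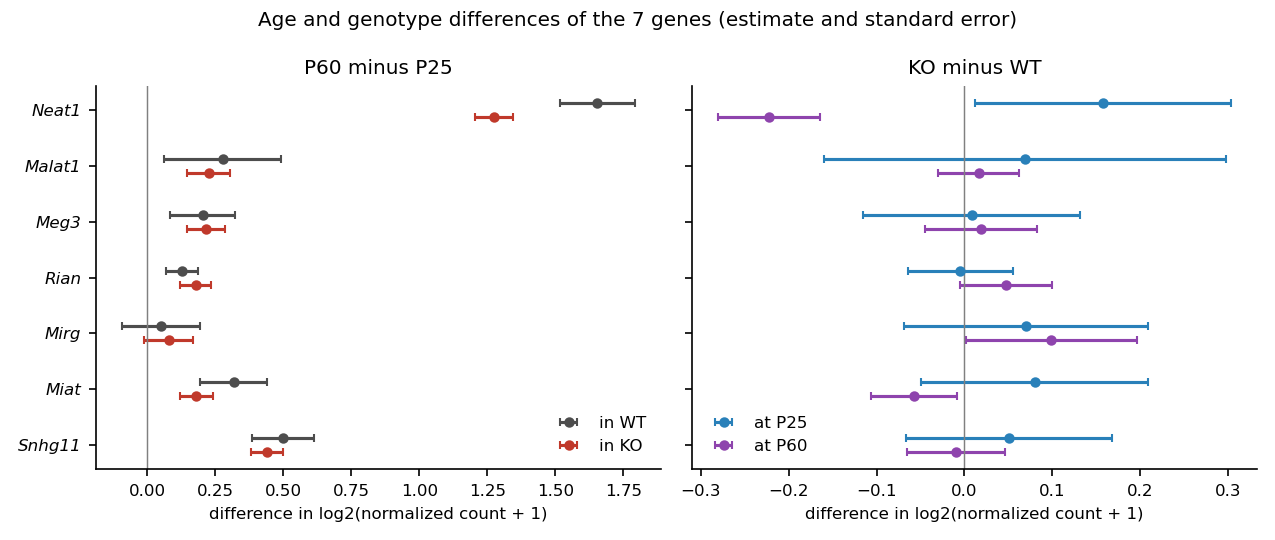
Differences in log2(normalized count + 1), estimate and standard error from limma, between ages in each genotype (left) and between genotypes at each age (right), for the 7 genes. Neat1 stands at 1.66 and 1.27 on the left while the other 6 lie between 0.05 and 0.50, and on the right only its P60 estimate, -0.22, is more than 2 standard errors from 0.

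The genotype comparisons asked whether loss of Shank3 goes with a change in these RNAs. None of the 7 genes passed the threshold at P25, at P60, over both ages or in the genotype-by-age interaction. The share of all genes called was 0.00571% at P25, 0.00568% at P60, 0.00568% over both ages and 0.0% in the interaction. At an unadjusted p under 0.05, limma gave 0 of the 7 at P25 and over both ages and 1 of 7, Neat1, at P60 and in the interaction, where it gave 1.36%, 2.05%, 2.5% and 1.64% of all genes.

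Neat1 at P60 was the 1 genotype difference among the 7 genes in which the groups did not overlap. Its mean was 3480 ± 117 (SD, n = 3) in P60-KO and 4064 ± 263 in P60-WT, 14.4% lower in KO, and the highest KO library, 3552, was below the lowest WT library, 3908. Of all genes 7.79% had groups that did not overlap in this comparison, 3.63% with KO lower. The log2 difference was -0.22 ± 0.06, with a 95% interval from -0.35 to -0.09. Its unadjusted limma p was 0.004, the 27th smallest of 17610, and its adjusted p was 0.9995. The libraries compared here also served in choosing Neat1 by its age difference, so the interval, p and rank are not free of that choice. The estimate was negative, between -0.25 and -0.16, in all 14 alternative settings, with adjusted p from 0.819 to 1. Without P60-WT replicate 2, the library with the most cerebellar signal, it was -0.25, and without P60-KO replicate 1 it was -0.24. Other lists leaned one way in the same comparison. The estimate was positive for 0 of 11 endothelial (median -0.18), 3 of 13 microglial (-0.09) and 1 of 5 cerebellar and hindbrain markers (-0.14). It was positive for 75 of 77 cytosolic ribosomal protein genes (median 0.07), 5 of 5 blood (0.16) and 7 of 8 forebrain markers (0.10). Glutamatergic neuron and oligodendrocyte markers were positive for 11 of 14 and 13 of 18, with medians of 0.02. None of these genes was called by limma. At an unadjusted limma p under 0.05 were 1 endothelial, 2 microglial, 5 ribosomal and 2 blood genes and 0 of the other lists, where 2.5% of all genes were. The summed endothelial levels overlapped, at 6123 to 9467 in KO and 7940 to 10250 in WT, and the summed blood marker levels did not, at 6505 to 7305 in KO and 5894 to 6410 in WT. Their part in the Neat1 difference was not tested.

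At P25 the groups overlapped for all 7 genes, where 4.76% of all genes had groups apart. The Neat1 estimate there was 0.16 ± 0.15, and it was -0.001 without P25-WT replicate 2. Over both ages it was -0.03 ± 0.10, with a 95% interval from -0.24 to 0.17. The interaction, the P60 genotype difference minus that at P25, was -0.38 ± 0.17 with an unadjusted limma p of 0.0412 and an adjusted p of 1, and it was -0.22 with an unadjusted limma p of 0.0837 without P25-WT replicate 2. Over all alternatives it ran from -0.52, without P25-WT replicate 3, to -0.22, with unadjusted limma p from 0.00226 to 0.0965 and adjusted p of 0.941 or more. The genotype difference of Neat1 was therefore not shown to differ between ages. The libraries in the interaction also served in choosing Neat1 by its age difference, so its unadjusted p is not free of that choice.

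For the other 6 genes the P60 estimates were small and lay between -0.06 for Miat and 0.10 for Mirg. With 1 library left out they ran from 0.02 to 0.18 for Mirg, 0.02 to 0.10 for Rian and -0.09 to -0.02 for Miat. The 95% intervals at P60 bounded the fold of KO over WT between 0.941 and 1.09 for Malat1, 0.918 and 1.12 for Meg3, 0.952 and 1.12 for Rian, 0.92 and 1.25 for Mirg, 0.891 and 1.04 for Miat and 0.911 and 1.08 for Snhg11. At P25 the intervals were wider, from 0.733 to 1.5 for Malat1 and from 0.828 to 1.22 for Meg3. Without P25-WT replicate 2 the P25 estimates were all negative, from -0.24 ± 0.09 for Malat1 and -0.15 ± 0.06 for Meg3 to -0.001 for Neat1, and none passed the threshold, with adjusted p of 0.939 or more.

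P25-WT replicate 2 was the lowest P25 library for 6 of the 7 genes. Against the mean log2 level of the other 5 P25 libraries, Malat1 deviated there by -0.79, Neat1 by -0.48, Mirg by -0.44, Miat by -0.43, Meg3 by -0.38 and Snhg11 by -0.38. Rian, the exception, deviated by -0.001. The other long noncoding RNA genes of the table, 1634 passing the minimum mean, deviated by -0.02 on average. The protein lists taken up below were low there too, nuclear speckle genes by -0.23 on average with 25 of 26 lower and paraspeckle genes by -0.17 with 24 of 27 lower. The 77 cytosolic ribosomal protein genes were higher there by 0.57, the blood markers by 0.50, the microglial markers by 0.29 and the oligodendrocyte markers by 0.23. Over all genes the deviation followed transcript length: its median was 0.36 for genes whose longest transcript was up to 1000 bases and -0.21 for those over 8000 bases. The longest transcripts of the 7 genes run from 3822 bases (Mirg) to 20771 (Neat1), and that of Rian, at 8089 bases, is in the middle of the 7. Rian had the lowest GC content of the 7 in its longest transcript, 35.8%, against 42.5% (Malat1) to 55.1% (Miat) in the others. What part length, GC content or RNA quality has in this was not tested.

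**Figure D3:**
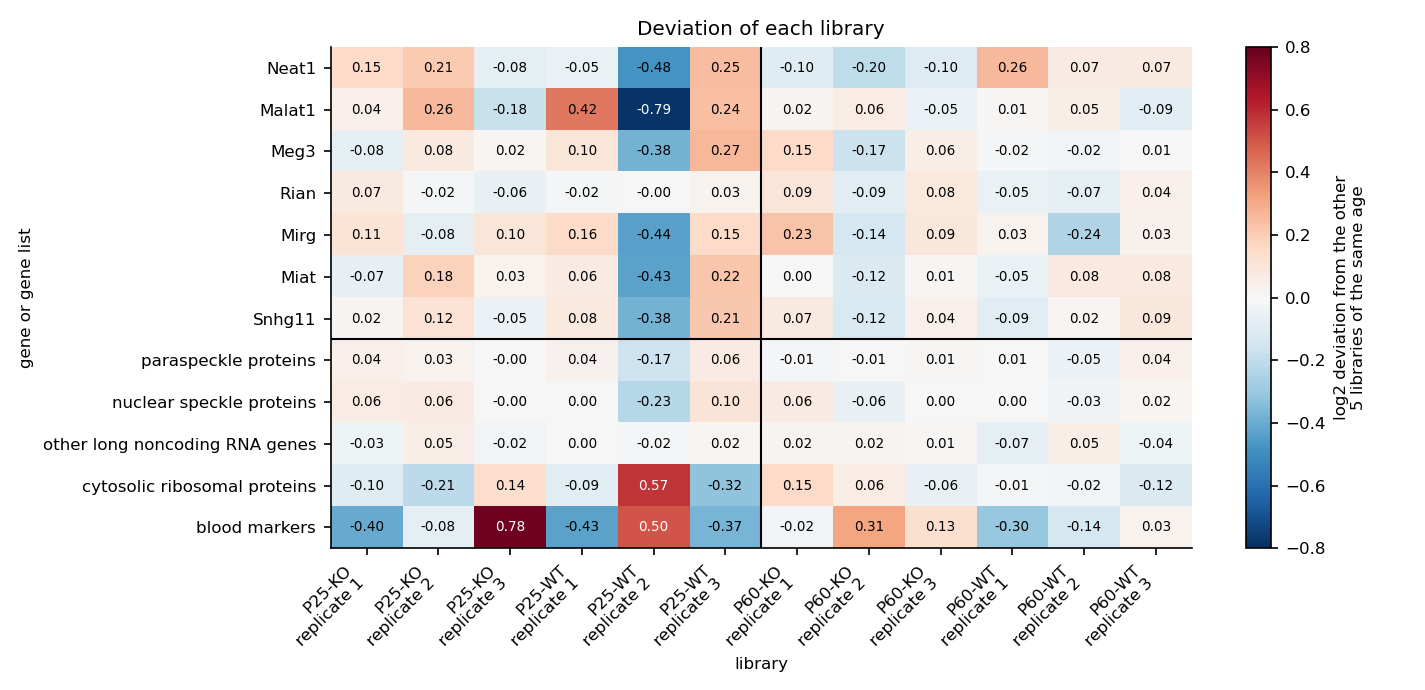
Deviation in log2 of each library (columns) from the mean of the other 5 libraries of its age, for the 7 genes and the mean of 5 gene lists (rows); the vertical line parts P25 from P60. P25-WT replicate 2 is low for 6 of the 7 genes, down to -0.79 for Malat1, and high for cytosolic ribosomal proteins at 0.57, while no P60 library deviates by more than 0.26 for any of the 7 genes.

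The protein partners of Neat1 were examined next, since paraspeckles need both. This list and those below were chosen with earlier results of these data known. Their counts set against all genes are thus no independent test of them. Of 27 paraspeckle protein genes, limma called 3 higher and 0 lower at P60 in WT (3.66% of all genes were called higher and 4.99% lower) and 7 higher and 2 lower in KO (9.37% called higher, 11.3% lower). The median log2 difference of the list was 0.16 in WT and 0.08 in KO. Cpsf6, a cleavage and polyadenylation factor whose complex acts on the choice between short and long Neat1, was higher by 0.37 ± 0.09 in WT (adjusted p = 0.0361) and by 0.31 ± 0.06 in KO (adjusted p = 0.00563). Cpsf7, of the same complex, was higher by 0.32 ± 0.08 in WT (adjusted p = 0.0414) and the RNA-binding protein gene Rbmx by 0.39 ± 0.10 (adjusted p = 0.0482). Cpsf7 and Rbmx were also called higher in KO, by 0.23 and 0.30 (limma adjusted p = 0.0163 and 0.0142). In KO, Srsf10 and Hnrnph1, both splicing regulators, were higher by 0.41 ± 0.07 and 0.26 ± 0.06 (adjusted p = 0.0042 and 0.011). The chromatin remodeller Smarca4 and Ahdc1 were lower in KO, at -0.20 ± 0.06 and -0.26 ± 0.08 (adjusted p = 0.0403 and 0.0471). In WT, Srsf10 and Hnrnph1 were at 0.31 and 0.35 and Smarca4 and Ahdc1 at -0.16 and -0.02, and none of them passed. The core proteins did not pass: Nono was at 0.02 in both genotypes, Pspc1 was at -0.15 in WT and -0.02 in KO, and Sfpq was at 0.31 in WT (adjusted p = 0.157) and 0.25 in KO (adjusted p = 0.053).

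Nuclear speckle genes, whose products share the speckle with Malat1, were examined in the same way. Of 26, limma called 7 higher and 0 lower at P60 in WT and 15 higher and 0 lower in KO, or 26.9% and 57.7% of the list, where 3.66% and 9.37% of all genes were called higher. The medians were 0.25 and 0.20. Clk1, a kinase of SR splicing factors, was higher by 0.60 ± 0.12 in WT (adjusted p = 0.0241) and 0.39 ± 0.06 in KO (adjusted p = 0.00248). The splicing factor genes Srsf1 and Rbm39 were higher in WT by 0.44 ± 0.08 and 0.46 ± 0.09 (adjusted p = 0.021 and 0.023). They were also called higher in KO, by 0.33 and 0.36 (limma adjusted p = 0.0129 and 0.00305). Srrm1 and Sf3b1 were higher in KO by 0.45 ± 0.06 and 0.37 ± 0.05 (adjusted p = 0.00106 and 0.00183). In WT they were also called higher, by 0.50 and 0.42 (limma adjusted p = 0.0314 and 0.033). The WT counts depended on single libraries: without P25-WT replicate 1 or any of the 3 P60-WT replicates, 0 genes of either list were called, where 122 to 375 genes were called over the whole table against 1521 with every library. Without P25-WT replicate 2 or 3 the calls rose, to as many as 5 higher for paraspeckle and 12 for speckle genes, as did the genes called higher over the whole table, from 644 to 988 and 983. The medians changed less, lying between 0.11 and 0.17 and between 0.19 and 0.32 with 1 library left out. In KO the counts with 1 library left out were 3 to 8 higher and 0 to 1 lower for paraspeckle genes and 8 to 12 higher for speckle genes, where 872 to 1475 genes of the whole table were called higher against 1649 with every library. Smarca4 and Ahdc1 each stayed called in 2 of those 6 fits. After removal of the length and GC trend they were 3 and 7 in KO and 3 and 3 in WT, where 1155 and 490 genes of the whole table were called higher.

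**Figure D4:**
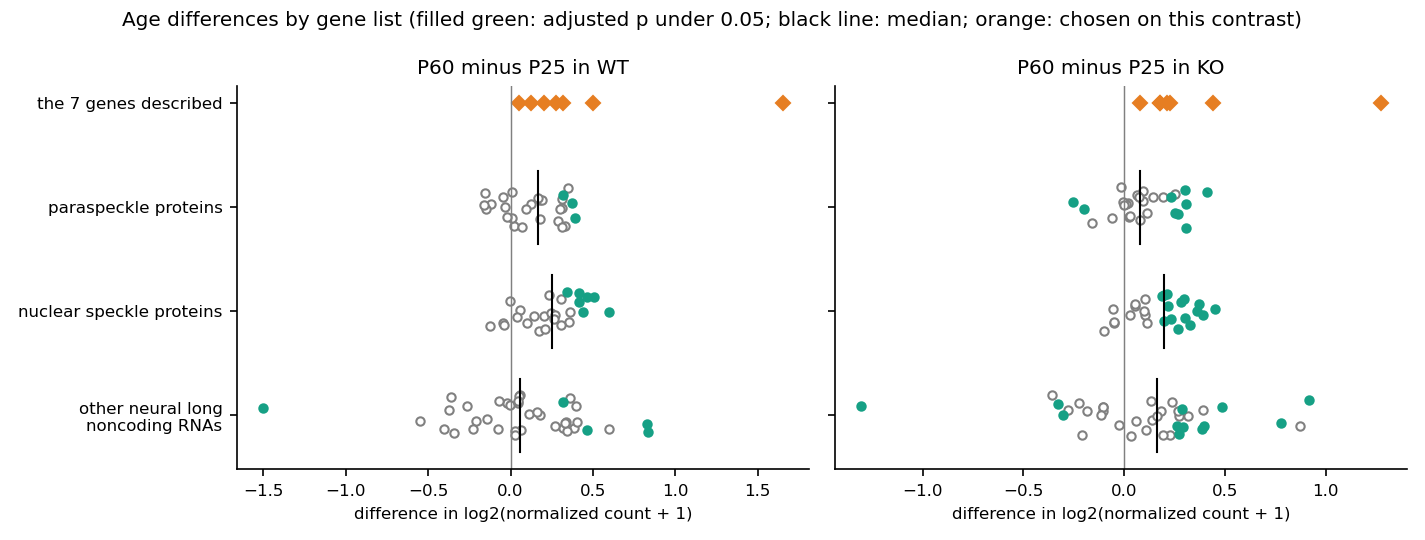
Differences in log2(normalized count + 1) between P60 and P25, in WT (left) and KO (right), for the 7 genes (orange, chosen on this contrast) and for each gene of 3 lists (green, adjusted p under 0.05 in limma; open, not; black line, list median). Medians of the paraspeckle and nuclear speckle lists lie between 0.08 and 0.25, and Neat1, chosen for this contrast, stands at 1.66 and 1.27. The lists were chosen with earlier results of these data known.

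In the genotype comparisons none of these genes passed. The smallest unadjusted limma p among paraspeckle genes was that of Taf15 at P25, at 0.00512, with 1101 ± 52.0 in P25-WT and 1342 ± 24.3 in P25-KO, a log2 difference of 0.29 ± 0.08 and an adjusted p of 1. At P60 the smallest was that of Nudt21, a partner of Cpsf6, with 0.15 ± 0.07 and an adjusted p of 0.9995. Bclaf1 led the speckle list at P60 with -0.10 ± 0.05 and an adjusted p of 0.9995.

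Other neural long noncoding RNAs went both ways with age. Of 38 tested, 4 were called higher and 1 lower at P60 in WT, and of 37 in KO 9 higher and 3 lower, that is 13.2% and 32.4% of the list, where 8.65% and 20.7% of all genes were called. Ftx, from the X-inactivation centre, was higher by 0.83 ± 0.16 in WT (adjusted p = 0.0219) and 0.78 ± 0.10 in KO (adjusted p = 0.00123). The small nucleolar RNA host Gas5 was higher by 0.47 ± 0.08 in WT (adjusted p = 0.0144) and by 0.40 in KO (limma adjusted p = 0.005). The imprinted Peg13 was higher by 0.32 ± 0.06 in WT (adjusted p = 0.0237) and 0.29 ± 0.05 in KO (adjusted p = 0.00327). Snhg14, which carries the antisense transcript to Ube3a, was higher by 0.92 ± 0.07 in KO (adjusted p = 8.59e-05) and by 0.83 in WT (limma adjusted p = 0.0357). H19, an imprinted RNA of fetal growth, was lower, at -1.50 ± 0.40 in WT (adjusted p = 0.0492) and -1.31 ± 0.31 in KO (adjusted p = 0.0161), at means of 24.0 and 30.2 normalized counts at P25 against 7.79 and 11.6 at P60. Pantr1 and Mir22hg were lower in KO, at -0.33 ± 0.09 and -0.30 ± 0.09 (adjusted p = 0.0344 and 0.0374). Their WT estimates, -0.55 and -0.23, were also negative but did not pass (limma adjusted p = 0.105 and 0.329). As in the nuclear body lists, 0 genes of this list were called in WT without P25-WT replicate 1 or any of the 3 P60-WT replicates, and in KO 5 to 8 were called higher and 1 to 2 lower with 1 library left out, where 2093 to 3230 genes of the whole table were called against 3641 with every library. Of 12 other genes named Snhg, 1 was called higher in each genotype. Among all other annotated long noncoding RNA genes, 43 of 1619 were called higher and 23 lower in WT, and 121 of 1631 higher and 41 lower in KO, 4.08% and 9.93% in all. In the genotype comparisons no gene of these lists was called by limma, and the smallest unadjusted limma p of the neural list at P60 were those of the small nucleolar RNA hosts Snhg1, 0.0292, and Snhg12, 0.0358, with log2 differences of 0.29 ± 0.11 and 0.27 ± 0.11.

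Of 15 genes of the table within 100000 bases of Neat1, limma called 4 lower and 0 higher at P60 in WT and 4 lower and 1 higher in KO, where 4.99% of all genes were called lower in WT and 11.3% lower and 9.37% higher in KO. Frmd8, 4223 bases away on the same strand, was lower at P60, at -0.63 ± 0.09 in WT (adjusted p = 0.00847) and -0.56 ± 0.07 in KO (adjusted p = 0.00137). Cdc42ep2, 70157 bases away, was lower, at -0.72 ± 0.15 and -0.59 ± 0.10 (adjusted p = 0.0239 and 0.00314). The symbol Sssca1 stands for 2 identifiers on the same strand, 92975 and 92994 bases away, whose values went opposite ways in KO, at -0.61 ± 0.12 and 0.31 ± 0.09 (adjusted p = 0.00879 and 0.0346), so how reads were split between them is uncertain. Near Miat, Crybb1 and Tpst2 were lower in both genotypes, Tpst2 at -0.60 ± 0.13 and -0.56 ± 0.09 (adjusted p = 0.0272 and 0.00273). Near Snhg11, Ralgapb was higher by 0.36 ± 0.07 and 0.28 ± 0.07 (adjusted p = 0.0249 and 0.0233). Lbp was lower in KO, at -0.41 ± 0.13 (adjusted p = 0.0488), and at -0.22 in WT, where it did not pass (limma adjusted p = 0.3445). With each of the 6 libraries of a genotype left out in turn, Frmd8 stayed called in 5 fits in WT and 6 in KO, Cdc42ep2 and Tpst2 in 3 and 6, Crybb1 in 2 and 6, Ralgapb in 2 and 3, and Lbp in none, with no change of sign. Near Meg3, the imprinted protein-coding genes Dlk1 and Rtl1 were not called, with log2 differences of -0.03 and -0.28 in WT and -0.05 and -0.21 in KO. Counting is taken as not strand-specific, so Miat, which shares 21.4% of its 31-base words with the opposite-strand Gm26953, and Malat1, which shares 5.97% with the opposite-strand Gm37376, may hold reads of those genes.

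The genes with the profile most like that of Neat1 over the 12 libraries were a gene with a clone name only, Chdh, Il33, Pcolce2 and Snhg14, of 12907 with a mean of at least 100. Likeness was the root mean square difference of centred log2 levels, 0.25 to 0.34 for these against 0.75 for Neat1 around its own mean. Il33, an alarmin cytokine gene, had means of 430 and 508 in P25-KO and P25-WT and of 1423 and 1353 in P60-KO and P60-WT. The 5 genes nearest to Meg3 were Atxn2l, Ap4m1, Usp19, Nup205 and Lrrc45, at 0.044 to 0.058 against 0.17 for Meg3 around its mean. Without P25-WT replicate 2, 4 of the 5 genes nearest to Neat1 and 3 of the 5 nearest to Meg3 were shared with these.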

How the data were processed

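Total RNA from 12 mouse forebrains was made into poly(A)-selected libraries with the TruSeq v2 kit, and the authors quantified transcripts with Salmon 1.1.0, summed them per gene and divided them by DESeq2 size factors (DESeq2 1.26.0 under R 3.6.2 and GRCm38 per the labels). The deposited signal is this normalized count per gene. Whole reads could not be recovered, so depth is unknown and no counting interval is given. Here log2(value + 1) was fitted with limma 3.58.1 (R 4.3.3, intensity trend) for genes with a mean of at least 10, with Benjamini-Hochberg adjustment over all of them and a threshold of 0.05. The fit was tested on simulated data with known changes. Replicates are separate mice by the study's n. Symbols and positions came from GENCODE M21, in which 19252 of 19268 identifiers were found.

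The members and all lists were chosen with earlier results of these data known. Named genes were, per list, up to 3 in each direction with the smallest adjusted p under 0.05 at each age contrast, otherwise the 2 with the smallest unadjusted p per age, with up to 3 called neighbours within 100000 bases of each locus, and the 5 genes nearest in profile to Neat1 and Meg3. Sfpq, Nono, Pspc1, Dlk1 and Rtl1 were named outside that rule. Alternatives changed the pseudocount to 10, the minimum mean to 50 or none, the scaling, the trend, the block and the libraries.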

Additional observations from a re-analysis of the deposited data

How the results depend on the processing

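The count of the 7 genes called was 0 in each genotype comparison and in the interaction under each alternative run. In the age contrasts it was 1 in WT without the intensity trend and 1 to 3 with 1 library left out, where 192 and 122 to 2403 genes of the table were called, and in KO 6 with library totals made equal and 2 to 4 with 1 library left out, where 3730 and 2093 to 3230 were. Removing the length and GC dependence gave Neat1 age differences of 1.41 in WT and 1.06 in KO, a Neat1 genotype difference over both ages of 0.012, Rian age differences of -0.20 in WT and -0.058 in KO, and a Snhg11 genotype difference at P60 of 0.011. Making the totals equal gave 0.0088 for Rian between genotypes at P25 and -0.0054 for the Meg3 interaction. The cause was not tested. The deviations of same-numbered libraries correlated at 0.06, 0.17 and 0.13 between genotypes at P60 and at -0.07 to 0.06 elsewhere, so that not every pair was over 0.1 and the numbers were not taken to pair the samples. The block moved the genes at an unadjusted p under 0.05 at P60 from 440 to 1017. With the number as a replicate block Neat1 between genotypes at P60 was -0.22 (limma adjusted p 0.819) and none of the 7 genes was called between genotypes. Shank3 lost its genotype call at P25 with the block, without the intensity trend, with the length and GC dependence removed and without P25-KO replicate 1 or 2, and at P60 without the intensity trend. Depth is unknown, and 3 libraries a group limit the precision.

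With 1 library left out the sign of a log2 difference turned for some genes. The difference ran between genotypes at P25 from -0.0014 to 0.30 for Neat1, -0.24 to 0.26 for Malat1, -0.15 to 0.12 for Meg3, -0.035 to 0.020 for Rian, -0.095 to 0.15 for Mirg, -0.078 to 0.19 for Miat and -0.10 to 0.15 for Snhg11. It ran between genotypes at P60 from -0.017 to 0.042 for Malat1, -0.039 to 0.10 for Meg3 and -0.049 to 0.040 for Snhg11. It ran between genotypes over both ages from -0.12 to 0.012 for Neat1, -0.10 to 0.13 for Malat1, -0.055 to 0.064 for Meg3, -0.066 to 0.053 for Miat and -0.048 to 0.062 for Snhg11. The value of the interaction ran from -0.52 to -0.22 for Neat1, -0.25 to 0.26 for Malat1, -0.10 to 0.17 for Meg3, -0.053 to 0.19 for Mirg, -0.25 to 0.021 for Miat and -0.16 to 0.086 for Snhg11. It ran between ages in WT from -0.032 to 0.47 for Malat1 and -0.12 to 0.13 for Mirg. The Neat1 age differences and the P60 genotype difference of Neat1 kept their sign throughout. P25-WT replicate 2 set an end of the range for 6 of the 7 genes at P25. The alternatives for the gene lists were chosen after seeing the data.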

Other observations

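Imprinted genes outside the Dlk1-Dio3 region, 34 tested, were called with age in WT at 11.8% and in KO at 20.6%, against 8.65% and 20.7% of all genes, so the KO share is at that of the table. Limma called 1 higher and 3 lower at P60 in WT and 4 higher and 3 lower in KO, with medians of -0.03 and 0.02. Igf2, a growth factor of fetal and perivascular tissue, was lower, at -0.85 ± 0.12 in WT (adjusted p = 0.008) and -0.80 ± 0.08 in KO (adjusted p = 0.000249). Snrpn, a neuronal splicing protein gene, was lower, at -0.39 ± 0.09 and -0.32 ± 0.05 (adjusted p = 0.0322 and 0.00266). Ube3a, the ubiquitin ligase gene opposed by the antisense part of Snhg14, was higher by 0.55 ± 0.08 and 0.32 ± 0.08 (adjusted p = 0.00709 and 0.024). Peg10 and Peg3, expressed from the paternal allele, were higher in KO by 0.48 ± 0.08 and 0.31 ± 0.06 (adjusted p = 0.00317 and 0.0083). Their WT estimates, 0.49 and 0.38, did not pass (limma adjusted p = 0.05001 and 0.0631). Nnat was lower, at -0.50 ± 0.13 in WT and -0.31 ± 0.10 in KO (adjusted p = 0.0427 and 0.0498). With 1 library left out, 0 to 5 of these genes were called higher and 0 to 4 lower in WT, where 122 to 2403 genes of the table were called, and 2 to 4 higher and 2 to 3 lower in KO, where 2093 to 3230 were. Nnat stayed called in 2 of 6 of those fits in WT and 1 of 6 in KO. In the genotype comparisons limma called 0 of the 34. It gave 1 at an unadjusted p under 0.05 at each age, where it gave 1.36% of all genes at P25 and 2.5% at P60. These were Dlx5 at P25 and Nnat at P60, with log2 differences of 0.34 ± 0.15 and 0.15 ± 0.06.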
